A study of Rattus norvegicus with 25 samples.

Results

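The genes described here are receptors of the epidermal growth factor (EGF) family and ligands that bind them, measured in rat intestine after Roux-en-Y gastric bypass (RYGB) or a sham operation. They are 6 of the 32883 Ensembl gene IDs in a count table of 25 RNA-seq libraries, and were taken by ID: Egfr (ENSRNOG00000004332), Erbb2 (ENSRNOG00000006450), Ereg (ENSRNOG00000002771), Areg (ENSRNOG00000002754), Tgfa (ENSRNOG00000016182) and Egf (ENSRNOG00000053979). The count table holds IDs without symbols, so the symbols are those given with the IDs when the set was drawn up. In RYGB the stomach is made into a small pouch and joined to a lower loop of small bowel, so that food runs through the alimentary limb into the common limb, where bile and pancreatic juice join it. The libraries fall into 7 groups and 2 cohorts.

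In the limb cohort, RYGB_AL is the alimentary limb and RYGB_CL the common limb of bypass-operated rats, while Sham_JEJU is the jejunum and Sham_IL the ileum of sham-operated rats, with 3 libraries in each group. The OLETF cohort comes from the Otsuka Long-Evans Tokushima Fatty rat, an inbred strain that becomes obese and diabetic. There, Glucotonic_OLE and Nonglucotonic_OLE are intestinal sections of bypass-operated rats that the submitters called glucotonic or not, and Sham_OLE is distal intestine after the sham operation, with 4, 4 and 3 samples. The labels give no strain for the limb cohort, no age or sex, and no criterion for calling a section glucotonic. Each library name ends in a number, used here to name it (RYGB_AL 1-1). The labels name intestinal tissue rather than sorted cells, so fewer cells of a type and less RNA per cell cannot be told apart. No marker of a cell type could be looked up, because no table pairs other IDs with symbols. The treated cell line named in the study's design is not analysed here.

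Receptors of this family sit in the cell membrane, pair up when a ligand binds outside the cell, and phosphorylate each other inside it, which starts the ERK and PI3K pathways. Egfr binds EGF, amphiregulin, epiregulin and TGF-alpha, whereas Erbb2 has no known ligand and is the favoured partner of the other receptors. All of these ligands are made as membrane-bound precursors that proteases release. In the intestine the family is known for its part in the growth of crypt cells and in the repair of a damaged epithelium, and amphiregulin and epiregulin are made by several cell types there.

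Areg and Ereg are neighbours in RefSeq's gene order on rat chromosome 14, between Btc and Epgn, genes of further EGF-like ligands. RefSeq promoter windows of build GRCr8, running from 250 bases before to 50 after the start of the gene, were given for 5 of the 6 genes: Egfr, Erbb2, Areg, Tgfa and Egf. The 250 bases before the start are shown for Areg (minus strand, chr14:17265642-17265891), the ligand gene that followed Ereg most closely, and for Erbb2 (plus strand, chr10:83907351-83907600), the receptor gene that was lower in the alimentary limb than in the sham jejunum, each 5′ to 3′ with motif matches in capitals.
Areg: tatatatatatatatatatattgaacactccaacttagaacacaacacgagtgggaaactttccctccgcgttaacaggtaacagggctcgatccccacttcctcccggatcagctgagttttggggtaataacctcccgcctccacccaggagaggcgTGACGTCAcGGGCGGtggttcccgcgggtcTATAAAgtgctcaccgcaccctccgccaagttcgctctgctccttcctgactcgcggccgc
Erbb2: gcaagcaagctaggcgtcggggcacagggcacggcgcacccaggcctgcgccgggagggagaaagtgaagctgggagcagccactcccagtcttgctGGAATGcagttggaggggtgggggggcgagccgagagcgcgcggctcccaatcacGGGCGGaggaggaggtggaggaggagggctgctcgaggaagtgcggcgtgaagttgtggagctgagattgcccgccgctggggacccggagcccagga
The windows were searched on both strands for 6 motifs: the cAMP response element TGACGTCA, the AP-1 site TGANTCA, the E-box CACGTG, the TATA box TATAAA, the GC box GGGCGG and the TEAD site GGAATG, none of which overlapped another in these windows. The Areg window held the cAMP response element at bases 160 to 167, the GC box at 169 to 174 and the TATA box at 190 to 195, counted from 1 at the window's 5′ end. The cAMP response element was found in 1.83% of all 33469 windows, the TATA box in 14.2% and the GC box in 33.1%. The Erbb2 window held the TEAD site at bases 98 to 103 and the GC box at 153 to 158, and the TEAD site was found in 14.2% of all windows. The Egfr and Tgfa windows held the GC box on the minus strand, once and at 2 places, and the Egf window held none of the motifs. The AP-1 site, in 7.33% of all windows, and the E-box, in 6.42%, were in none of the 5. These matches describe the letters and are not measured binding sites.

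Library totals ran from 23.7 to 49.3 M counts in the limb cohort and from 18.1 to 25.6 M counts in the OLETF cohort. In the OLETF cohort a single ID, ENSRNOG00000043866, took 35.5 to 52.6% of each library, against at most 1.47% in the limb cohort, which left 8.48 to 12.8 M counts per library beside the leading 2 IDs. Levels are CPM, the counts of a gene per M counts of the scaled library, and are set side by side only for the same gene within a cohort. They were tested with edgeR's quasi-likelihood test on the counts of each cohort, with an adjusted p under 0.05 over all IDs tested as the threshold. Each log2 change is given with its standard error (SE).

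Ereg, which encodes epiregulin, was the member that changed most in the alimentary limb. It stood at 33.4, 165 and 143 CPM in RYGB_AL 1-1, 2-3 and 15-29, and at 10.6, 14.5 and 14.3 CPM in Sham_JEJU 8-15, 14-28 and 15-30. Every alimentary limb library was above every jejunum library, and RYGB_AL 1-1 was far below the other two of its group. The group means were 114 ± 70.3 CPM (SD, n = 3) and 13.1 ± 2.18 CPM (SD, n = 3). Ereg rose by a log2 change of 3.12 (SE 0.55, edgeR adjusted p = 0.00669).

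Erbb2, the receptor without a ligand of its own, fell in the same comparison. Its level was 66.0, 37.5 and 43.1 CPM in RYGB_AL 1-1, 2-3 and 15-29 and 111, 135 and 96.5 CPM in Sham_JEJU 8-15, 14-28 and 15-30. The groups did not overlap, and RYGB_AL 1-1, the library with the least Ereg of its group, had the most Erbb2. The log2 change was -1.23 (SE 0.23, edgeR adjusted p = 0.00794). Egfr, the receptor that binds all 4 of the ligands measured, stood higher instead, at 146, 117 and 119 CPM in the alimentary limb against 84.5, 62.3 and 70.2 CPM in the jejunum. Its groups did not overlap either, but its log2 change of 0.81 (SE 0.23) had an edgeR adjusted p of 0.0535.

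Areg, which encodes amphiregulin, was at 12.3, 44.5 and 42.5 CPM in RYGB_AL 1-1, 2-3 and 15-29 and at 9.78, 9.63 and 17.7 CPM in Sham_JEJU. RYGB_AL 2-3 and 15-29 were high, whereas RYGB_AL 1-1 lay within the range of the jejunum libraries. The log2 change of 1.42 (SE 0.45) had an edgeR adjusted p of 0.0788, and without RYGB_AL 1-1 it was 1.81 with an adjusted p of 0.0117. With any other of the libraries compared left out, the edgeR adjusted p of Areg was 0.0609 to 0.267. Tgfa, which encodes TGF-alpha, ranged from 75.2 to 90.9 CPM in the alimentary limb and from 42.3 to 65.6 CPM in the jejunum, with a log2 change of 0.69 (SE 0.29, edgeR adjusted p = 0.181). Egf was the member with the fewest counts, 24 to 39 per library here, and its log2 change was -0.23 (SE 0.37, edgeR adjusted p = 0.767).

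Of the 6 genes, 2 passed the threshold between alimentary limb and jejunum, 1 higher and 1 lower, where 7.66% of the 16146 IDs tested did. Their median log2 change was 0.75, against -0.01 over all IDs. In 5 of the 6 the groups did not overlap, as in 26.6% of all IDs. Egf was among these 5, with at most 0.845 CPM in the alimentary limb and at least 0.868 CPM in the jejunum. DESeq2 also called Egfr (adjusted p = 0.0172) and Areg (adjusted p = 0.0167), 4 members in all, where it called 12.6% of all IDs. In a fit of these 2 groups alone Egfr passed as well (edgeR adjusted p = 0.0368). Both edgeR calls held whichever one of the 6 libraries compared was left out, but without RYGB_AL 15-29 and Sham_JEJU 15-30 together, 2 libraries whose names begin with the same number, Ereg had an adjusted p of 0.0755 and Erbb2 of 0.0544.

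**Figure D1:**
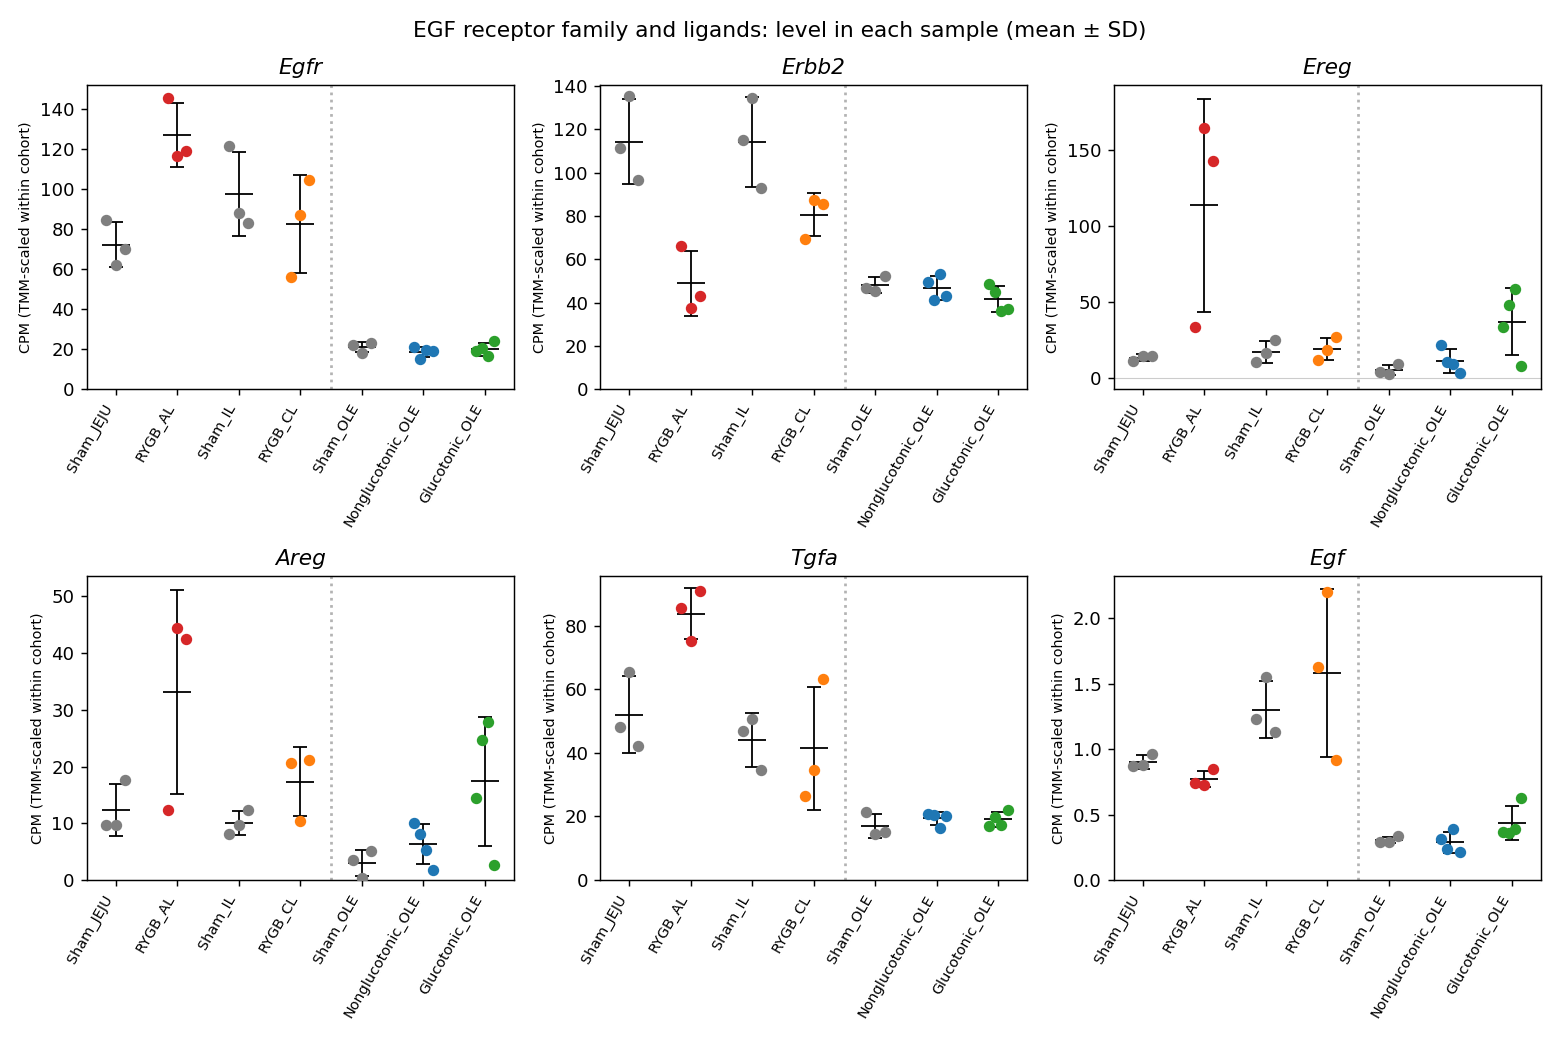
Level of each member in CPM (vertical axes, one panel per gene) in every library of the limb cohort and every sample of the OLETF cohort, by group (horizontal axis); points are samples and bars are the mean ± SD. The RYGB_AL libraries reach 165 CPM for Ereg, and the Erbb2 points of RYGB_AL lie below those of Sham_JEJU.

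The common limb was compared with the sham ileum, the corresponding distal segment. Ereg ranged from 11.9 to 26.5 CPM in RYGB_CL and from 10.3 to 24.8 CPM in Sham_IL, nearly the same span. Its log2 change was 0.15 (SE 0.51, edgeR adjusted p = 0.951). Erbb2 was at 69.4, 87.3 and 85.4 CPM in RYGB_CL 1-1, 2-3 and 15-29 and at 115, 135 and 92.9 CPM in Sham_IL 8-15, 14-28 and 15-30. The highest common limb library was below the lowest ileum library, and the log2 change was -0.50 (SE 0.23, edgeR adjusted p = 0.633). Erbb2 was the only 1 of the 6 whose groups did not overlap, against 16.1% of all IDs.

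For the other members the common limb and the ileum overlapped. Areg was at 20.5, 10.3 and 21.1 CPM in the common limb and at 8.14, 9.65 and 12.3 CPM in the ileum, with a log2 change of 0.79 (SE 0.45, edgeR adjusted p = 0.677). The log2 changes were -0.24 (SE 0.23) for Egfr, -0.09 (SE 0.29) for Tgfa and 0.28 (SE 0.36) for Egf. None of the 6 passed in edgeR, where 0% of the 16146 IDs did, although 1268 IDs were at an unadjusted p under 0.05. Erbb2 was the one member among these, with an unadjusted p of 0.0470 in edgeR. DESeq2 called 93 IDs and none of the members. The median log2 change of the members was 0.03, against 0.05 over all IDs.

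Along the intestine after bypass, Ereg and Tgfa were lower in the common limb than in the alimentary limb. Ereg, with the levels given above, fell by 2.59 on the log2 scale (SE 0.54, edgeR adjusted p = 0.0171). Tgfa was at 85.4, 75.2 and 90.9 CPM in RYGB_AL 1-1, 2-3 and 15-29 and at 26.5, 34.5 and 63.2 CPM in RYGB_CL with the same numbers. The Tgfa groups did not overlap, RYGB_CL 15-29 came nearest to the alimentary limb, and the log2 change was -1.02 (SE 0.29, edgeR adjusted p = 0.0472). Erbb2 had a log2 change of 0.72 (SE 0.23, edgeR adjusted p = 0.0649) and Egfr of -0.62 (SE 0.23, edgeR adjusted p = 0.104), opposite in sign to each other as in the alimentary limb against the jejunum. Egf, at 0.741, 0.729 and 0.845 CPM in the alimentary limb and 1.63, 2.20 and 0.915 CPM in the common limb, had a log2 change of 1.04 (SE 0.36, edgeR adjusted p = 0.0879), and Areg of -0.93 (SE 0.44, edgeR adjusted p = 0.184).

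These 2 calls of 6 stood beside 9.32% of all IDs, and the groups of 5 members did not overlap, against 32% of all IDs. Egf, on 25 to 87 counts per library, was among these 5. The members' median log2 change was -0.78, against 0.04 over all IDs. Since this comparison and that with the jejunum share the RYGB_AL libraries, their values are not independent of each other. The Ereg call was lost when RYGB_AL 2-3 (adjusted p = 0.0684), RYGB_AL 15-29 (0.0564), RYGB_CL 1-1 (0.0546) or RYGB_CL 2-3 (0.0534) was left out, and the Tgfa call was kept only without RYGB_CL 15-29 (0.00549) and had an adjusted p of 0.0861 to 0.134 without any other library. In a fit of these 2 groups alone neither passed (adjusted p = 0.0715 for Ereg and 0.114 for Tgfa), whereas DESeq2 called both and also Erbb2 (adjusted p = 0.0292) and Egf (adjusted p = 0.0487), as it did 17.2% of all IDs.

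The sham segments served to show how these genes differ along the intestine without a bypass. None of the 6 passed between ileum and jejunum, where 9.22% of all IDs did. Erbb2 was at the same mean in both, 114 ± 20.8 CPM (SD, n = 3) in the ileum and 114 ± 19.7 CPM (SD, n = 3) in the jejunum, with a log2 change of 0.00 (SE 0.23, edgeR adjusted p = 0.995). Egfr had a log2 change of 0.43 (SE 0.23), Ereg of 0.38 (SE 0.51), Areg of -0.30 (SE 0.44) and Tgfa of -0.24 (SE 0.29), with edgeR adjusted p values from 0.239 to 0.677. Only for Egf did the segments not overlap, against 35.2% of all IDs: its level was 1.23, 1.55 and 1.13 CPM in the ileum and 0.868, 0.879 and 0.963 CPM in the jejunum (log2 change 0.53, SE 0.36, edgeR adjusted p = 0.360). The members' median log2 change was 0.19, against 0.03 over all IDs.

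Whether the surgery effect differed between the proximal and the distal segment was tested as an interaction, the log2 change of RYGB_AL against Sham_JEJU minus that of RYGB_CL against Sham_IL. The difference was 2.97 for Ereg (SE 0.74, edgeR adjusted p = 0.105) and 1.06 for Egfr (SE 0.33, edgeR adjusted p = 0.185). It was -0.73 (SE 0.32) for Erbb2, 0.78 (SE 0.41) for Tgfa, 0.63 (SE 0.62) for Areg and -0.51 (SE 0.51) for Egf. None of the 6 passed, where 0.607% of all IDs did. An unadjusted p under 0.05 in edgeR was found for 3 members and for 2026 of the 16146 IDs tested. The Ereg difference had an adjusted p of 0.00185 in DESeq2, which called 3.52% of all IDs, and, without RYGB_AL 1-1, of 0.0200 in edgeR. With any other limb library left out, its edgeR adjusted p was 0.122 to 0.259.

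Ordered by mean CPM, Egfr ran from RYGB_AL (127 ± 16.02, SD) through Sham_IL (97.7 ± 20.9, SD) and RYGB_CL (82.7 ± 24.4, SD) to Sham_JEJU (72.3 ± 11.2, SD), and each neighbouring pair overlapped. Erbb2 ran from both sham segments, at 114 each, through RYGB_CL (80.7 ± 9.83, SD) to RYGB_AL (48.9 ± 15.1, SD), and the sham segments alone overlapped each other. For Ereg and Tgfa, RYGB_AL stood above and apart from the next group, and the other 3 groups overlapped in order. For Areg all neighbours overlapped. Egf was lowest in RYGB_AL (0.772 ± 0.0640 CPM, SD), apart from Sham_JEJU (0.903 ± 0.0521 CPM, SD), on no more than 39 counts a library.

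**Figure D2:**
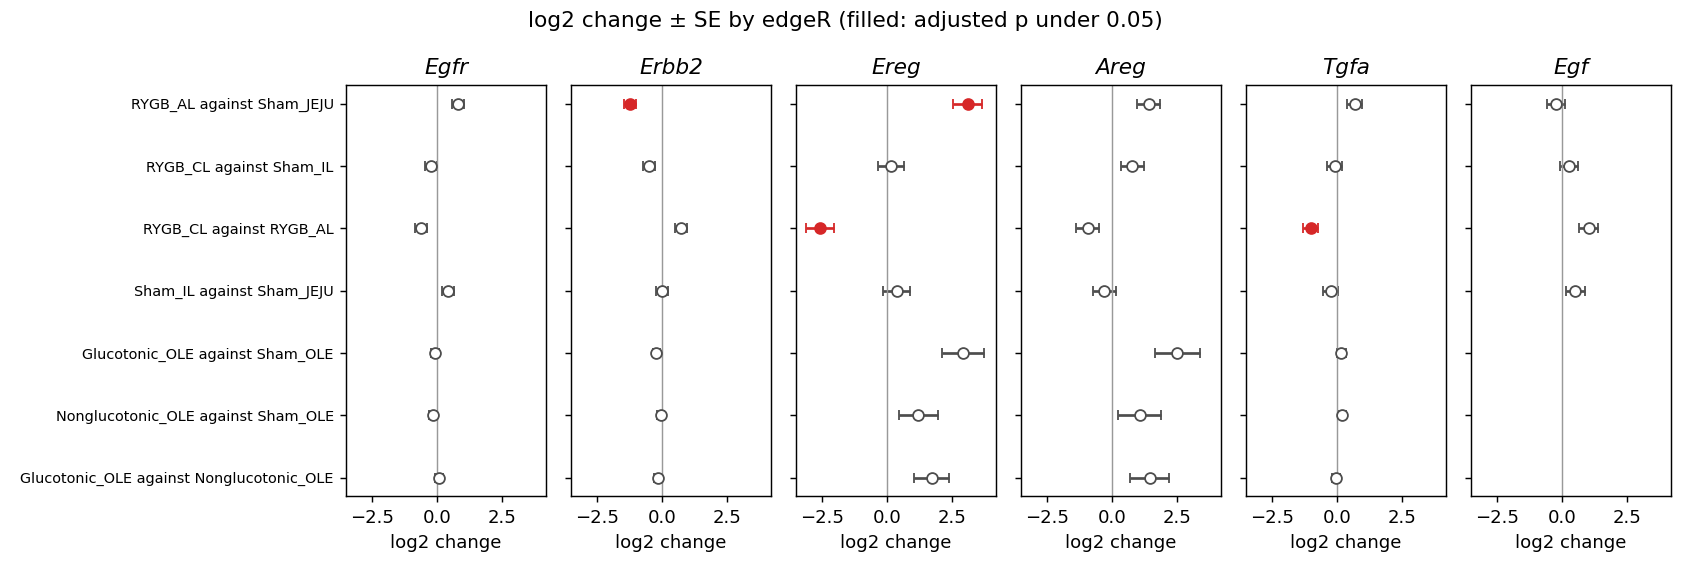
Log2 change of each member (horizontal axes, one panel per gene) in 7 comparisons (vertical axis), as points with bars of ± SE from edgeR; filled points have an adjusted p under 0.05. Filled points are Erbb2 and Ereg in RYGB_AL against Sham_JEJU and Ereg and Tgfa in RYGB_CL against RYGB_AL, and Egf has no points in the OLETF cohort.

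In the OLETF cohort the ligand genes Ereg and Areg again stood highest in a group of bypass-operated tissue, but no member passed the test. Both libraries of number 13 in a group were summed to 1 sample. Ereg was at 33.4, 48.1, 58.5 and 7.36 CPM in Glucotonic_OLE 13, 16, 18 and 19 and at 3.49, 2.21 and 8.65 CPM in Sham_OLE 4, 22 and 23. Glucotonic_OLE 19 lay within the range of the sham samples, and the other glucotonic samples were above it. The log2 change of Ereg was 2.95 (SE 0.80, edgeR adjusted p = 0.147).

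Areg ordered the samples within each group as Ereg did, at 14.4, 24.6, 27.9 and 2.66 CPM in the glucotonic samples and 3.58, 0.433 and 5.04 CPM in the sham samples. Its log2 change was 2.52 (SE 0.87, edgeR adjusted p = 0.209), and Sham_OLE 22 rested on 9 counts of Areg. Egfr, Erbb2 and Tgfa spanned narrow ranges instead. Over all 11 OLETF samples Egfr ran from 15.3 to 24.2 CPM, Erbb2 from 36.02 to 53.03 CPM and Tgfa from 14.4 to 21.98 CPM. Against sham, the glucotonic sections had log2 changes of -0.07 (SE 0.16) for Egfr, -0.21 (SE 0.14) for Erbb2 and 0.17 (SE 0.17) for Tgfa.

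None of the 5 members tested passed between glucotonic sections and sham, where 0.0345% of the 14495 IDs did (5 IDs), and 2 members, Ereg and Areg, had an unadjusted p under 0.05 among 2380 such IDs. The median log2 change of the members was 0.17, against -0.02 over all IDs. DESeq2 called Ereg (adjusted p = 0.0129) and 3.61% of all IDs. With both sections of number 19 left out, edgeR called Ereg (log2 change 3.28, adjusted p = 0.0150) and Areg (2.88, adjusted p = 0.0305), as it did 13% of all IDs. All sham libraries were sequenced in lane 7 and most bypass libraries in others. With lane 7 as a covariate and the libraries of number 13 kept apart, the log2 change of Ereg was 2.13 (SE 1.06, edgeR adjusted p = 0.559). For Areg it was 1.42 (SE 1.13, edgeR adjusted p = 0.678). The only bypass libraries in lane 7 were of number 13, so the lane term rests on them. Within lane 7, which left a single glucotonic library, that of number 13, the log2 changes were 2.73 for Ereg and 2.10 for Areg.

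For Ereg and Areg the means of the nonglucotonic sections lay between those of the other groups. Ereg was at 21.7, 10.5, 8.85 and 3.02 CPM in Nonglucotonic_OLE 13, 16, 18 and 19, and Areg at 10.03, 8.02, 5.34 and 1.83 CPM. Both genes ranked the samples in the same order, with number 13 highest and number 19 within the sham range. Against sham, the log2 change was 1.22 for Ereg (SE 0.75, edgeR adjusted p = 0.795) and 1.07 for Areg (SE 0.84, edgeR adjusted p = 0.833). With library 13-33 of number 13 left out the log2 changes of Ereg and Areg were 0.39 and 0.40, and with 13-34 left out 1.80 and 1.58, choices made after their values were seen. Within lane 7, which left Nonglucotonic_OLE 13-34 as the 1 bypass library of this comparison, the changes were -0.74 for Ereg and -1.88 for Areg, opposite in sign. The log2 changes were -0.16 (SE 0.16) for Egfr, -0.05 (SE 0.14) for Erbb2 and 0.19 (SE 0.17) for Tgfa. No ID passed in edgeR (0%), 936 had an unadjusted p under 0.05 with none of the 5 members among them, and DESeq2 called 27 IDs but no member. The median log2 change of the members was 0.19, against -0.02 over all IDs.

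Number 13 was the one number with more than 1 library of a kind, and its nonglucotonic libraries differed widely for these ligands. Their names carry different second numbers, 33 and 34, and the labels do not say what these mark. Library 13-33 had 45.4 CPM of Ereg and 21.6 CPM of Areg, on 911 and 433 counts, whereas 13-34 had 2.90 and 0.828 CPM, on 70 and 20 counts. The first was thus 15.7-fold higher for Ereg and 26.1-fold higher for Areg, at the level of glucotonic sections, while the second was at the level of sham. The glucotonic libraries of number 13, which share the second number 38, had 36.2 and 32.3 CPM of Ereg and 16.7 and 13.2 CPM of Areg. Lanes 4 and 7 hold 1 library of each of these pairs.

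Glucotonic and nonglucotonic sections share their numbers, so the values were also read by number. Ereg was higher in the glucotonic section for 4 of 4 numbers, by 1.54-, 4.598-, 6.61- and 2.44-fold in 13, 16, 18 and 19. Areg was higher for 4 of 4 as well, by 1.44-, 3.07-, 5.23- and 1.46-fold. The share of all IDs with the same direction in 4 of 4 numbers was not computed. Areg and Ereg varied together across these libraries, so their directions are not independent of each other. For number 13 the direction rests on the sum of both nonglucotonic libraries: each glucotonic library of 13 was below 13-33 and above 13-34 for both genes. Numbers 16 and 18 showed the larger ratios, and number 19 was low in both sections.

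The log2 change between glucotonic and nonglucotonic sections was 1.73 for Ereg (SE 0.67, unadjusted p = 0.0260 in edgeR) and 1.46 for Areg (SE 0.74, unadjusted p = 0.0752 in edgeR). Both had an edgeR adjusted p of 0.99998. With the number as a block, the SE fell to 0.41 for Ereg (log2 change 1.71, edgeR adjusted p = 0.235) and to 0.36 for Areg (1.32, edgeR adjusted p = 0.251). Egfr, Erbb2 and Tgfa had log2 changes of 0.09 (SE 0.15), -0.17 (SE 0.13) and -0.03 (SE 0.15). None of the 5 passed in either fit, where edgeR called 0% of the IDs without the block (388 at an unadjusted p under 0.05, Ereg among them, and 3 by DESeq2) and 0.179% with it. The median log2 change of the members was 0.09, against 0.00 over all IDs. With library 13-33 left out, a choice made after its values were seen, the blocked log2 change of Ereg was 2.49 (SE 0.34, edgeR adjusted p = 0.0332, with 2.54% of all IDs called), and with 13-34 left out instead it was 1.45 with an adjusted p of 0.751.

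**Figure D3:**
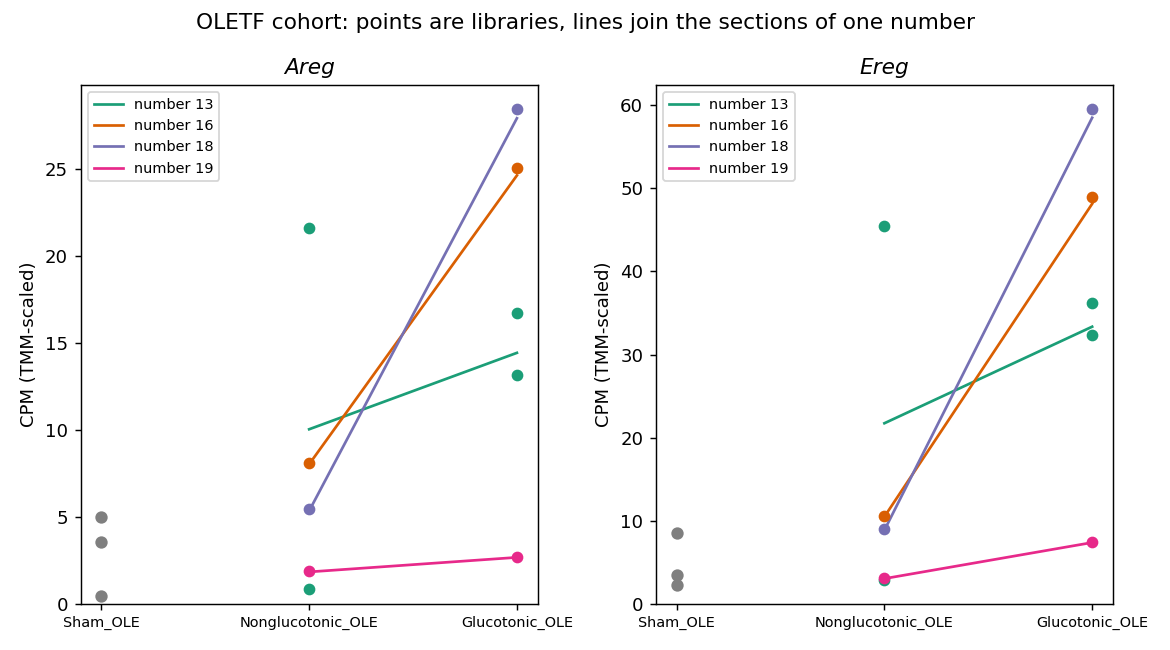
Ereg and Areg in CPM (vertical axes) in the OLETF cohort by kind of section (horizontal axis); points are libraries, and lines join the samples of one number after summing, which were scaled separately. The line of number 19 stays low, and the libraries of Nonglucotonic_OLE 13 lie at 45.4 and 2.90 CPM for Ereg.

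Across the 13 OLETF libraries, Areg and Ereg varied together over a wide range. Areg ran from 0.438 CPM in Sham_OLE 22 to 28.4 CPM in Glucotonic_OLE 18, and Ereg from 2.24 to 59.6 CPM in the same libraries. The log2 levels had a Pearson r of 0.95 and a Spearman rho of 0.99, and r was 0.97 without the libraries farthest from the median of Areg, Sham_OLE 22 and Nonglucotonic_OLE 13-34. Taken as deviations from the group means, r was 0.94, so the relation was also present within groups. Among 9340 IDs with a mean of at least 5 CPM, Ereg took place 1 in likeness to Areg, and Areg took place 5 in likeness to Ereg. The libraries share numbers and lanes, and these correlations are descriptions without a test.

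In the 12 limb libraries the relation of Areg and Ereg was looser, with r 0.84 and rho 0.68, and it rested on RYGB_AL 2-3 and 15-29, without which r was 0.28. Among 10942 IDs, Areg took place 220 in likeness to Ereg, Tgfa place 1184, Egfr place 2072, Egf place 9171 and Erbb2 place 10907. Erbb2 was thus near the far end of the order for Ereg, and Ereg and Areg took places 10782 and 10826 in the order for Erbb2. Ereg and Erbb2 were called in opposite directions between alimentary limb and jejunum. Those libraries are among these 12, so the places partly repeat that group difference. Taken as deviations from the group means, r was 0.76 for Areg with Ereg, -0.59 for Erbb2 with Ereg and -0.83 for Erbb2 with Areg. The r of Erbb2 with Ereg was -0.87 (rho -0.71), and -0.49 without RYGB_AL 2-3 and 15-29. With Areg it was -0.89 (rho -0.89), and -0.64 without these libraries. In the OLETF cohort the r of Erbb2 with Ereg was -0.16 (rho -0.19).

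**Figure D4:**
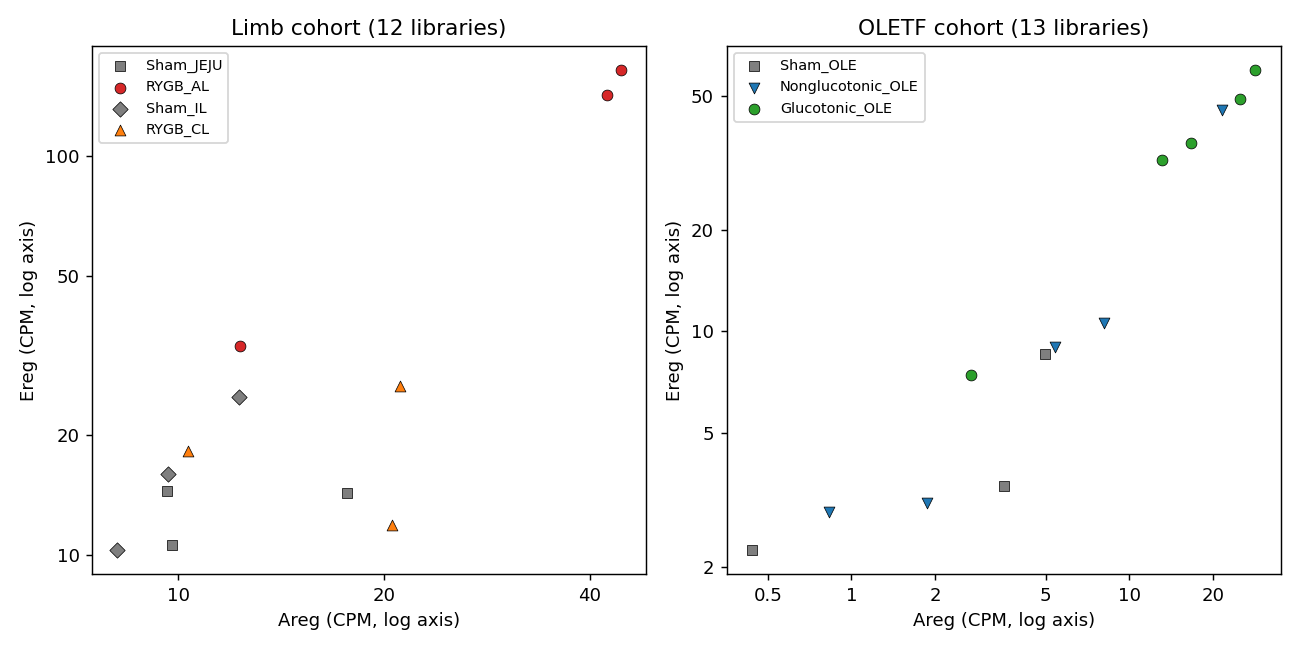
Ereg against Areg, both in CPM on log axes, in the 12 limb libraries (left) and the 13 OLETF libraries (right), with 1 point per library marked by group. The OLETF points lie along a rising line, and on the left RYGB_AL 2-3 and 15-29 lie apart from the rest.

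Egf, the namesake ligand, was scarcely detected in the OLETF cohort, at 5 to 18 counts per sample, and did not pass the filter on low counts, so it was not tested there. It ran from 0.356 to 0.627 CPM in the glucotonic samples, from 0.213 to 0.391 CPM in the nonglucotonic samples and from 0.289 to 0.333 CPM in the sham samples. The glucotonic and sham samples did not overlap, but they held 7 to 18 and 6 to 7 counts. By mean CPM, Ereg and Areg ran from glucotonic through nonglucotonic to sham samples, Egfr from sham through glucotonic to nonglucotonic, Erbb2 from sham through nonglucotonic to glucotonic, and Tgfa from nonglucotonic through glucotonic to sham. Neighbouring groups overlapped for each of these 5 genes.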

How the data were processed

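The authors deposited whole-number read counts per Ensembl rat gene ID for 25 libraries, not normalized by them as the values show. Per the labels' protocols, RNA was purified on columns, depleted of ribosomal RNA and prepared as stranded libraries. The submitters' processing notes name STAR, FastQC and build rn6. Not given in the sources used here are the counting tool and its annotation, strand and multi-mapping rules. Reads shared with similar or overlapping genes cannot be told apart.

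Groups came from the sample titles. Each cohort was fitted alone with edgeR 4.0.16 in R 4.3.3: filterByExpr by group (minimum count 10, minimum total 15), TMM factors, glmQLFit in its robust form, glmQLFTest and Benjamini-Hochberg adjustment over all IDs, threshold 0.05. The SE is the absolute log2 change over the root of F. CPM use TMM-scaled libraries; correlations use log2 CPM with a prior count of 2. The limb cohort had a biological coefficient of variation of 0.314 and the OLETF cohort of 0.279. The procedure was run on simulated counts drawn independently for each sample, without lanes or shared numbers, so pairing and lanes were not tested. Alternatives were DESeq2 1.42.0, its size factors in edgeR, no filter, only the groups compared, each sample left out, lanes and the replicate block.

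The members and lists were chosen with earlier results of these data known. All 6 members are named in every comparison. Other pathway and cell type lists, and the names of IDs most like a member, could not be applied, because 0 reference rows carry an Ensembl rat ID; only the places of other members are given. Nothing says that samples came from separate rats, so a p-value measures only the spread between samples, which may be technical.

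In the OLETF cohort same-numbered sections deviated together, each pair with a correlation above 0.1. The correlations of deviations from group means were 0.467, 0.430, 0.341 and 0.811 for numbers 13, 16, 18 and 19. These sections were taken as paired when read by number and in the block fit, whereas the main fit had no term for the number. The highest correlations of these glucotonic sections with another number were 0.412, 0.221, 0.444 and -0.275. The 0.444, between Glucotonic_OLE 18 and Nonglucotonic_OLE 16, was above the same-number value of both 18 (0.341) and 16 (0.430). Values above 0.1 thus also occurred between different numbers, so this cut does not separate same-numbered from other pairs. The pairing comes from the data, as the labels do not say what a number marks.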

Additional observations from a re-analysis of the deposited data

Results flagged for a closer look

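In the OLETF cohort, Tgfa in Nonglucotonic_OLE 18 stood apart below the rest of its group, at 16.2 CPM with the nearest sample at 20.02 CPM. Egf in Glucotonic_OLE 19 stood apart above its group, at 0.627 CPM with the nearest at 0.388 CPM, on at most 18 counts. In 12 groups of 4 samples examined, chance marks about 1 in 20.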

How the results depend on the processing

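Depth limits Egf, with 24 to 87 counts per limb library and 5 to 18 per OLETF sample, and Areg in Sham_OLE 22, with 9. Of the 6 members, the number called between alimentary limb and jejunum was 4 with DESeq2 (12.6% of all IDs called). With only the groups compared it was 3 (6.89%), and without both libraries starting with 15 it was 0 (1.85%). It was 2 to 3 with each library left out in turn (2.97 to 7.42%). Between common and alimentary limb it was 4 with DESeq2 (17.2%) and 0 with only the groups compared (2.81%). With each library left out it was 0 to 4 (2.43 to 13.4%), and the 4 came without RYGB_CL 15-29, where 13.4% of all IDs were called. For the interaction it was 1 with DESeq2 (3.52%) and 0 to 1 with each library left out (0.0483 to 0.782%). Between glucotonic sections and sham it was 1 with DESeq2 (3.61%) and 2 without both sections of number 19 (13%), and between glucotonic and nonglucotonic sections 1 with the replicate block and library 13-33 left out (2.54%). The alternatives that leave out libraries 13-33, 13-34, both of number 15, or number 19 under the block were chosen after seeing the data.

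In the limb cohort the samples were not taken as paired by number. Correlations of deviations between same-numbered samples were -0.05, 0.27 and 0.17 for bypass numbers 1-1, 2-3 and 15-29. For sham numbers 8-15, 14-28 and 15-30 they were 0.03, 0.06 and 0.09. Between different numbers they ran from -0.29 to 0.16 after bypass and from -0.13 to 0.09 after sham. With 3 samples per group, these values cannot show that pairing is absent. With the replicate block, 907 IDs were called between common and alimentary limb in place of 1504, with 2 members, Ereg at -2.37 and Tgfa at -1.11; 688 between ileum and jejunum in place of 1489, with no member; and 69 for the interaction in place of 98, with 1 member, Ereg at 2.67 (edgeR adjusted p = 0.0382). With all libraries kept, the OLETF block changed no call of a member; with library 13-33 left out it took the adjusted p of Ereg from 0.496 to 0.0332.

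Changes of sign came in log2 changes that passed no test; the cause was not tested. With each library or sample left out, Ereg ran from -0.17 to 0.53, Tgfa from -0.53 to 0.15 and Egf from -0.032 to 0.56 in common limb against ileum; Erbb2 from -0.14 to 0.15, Areg from -0.48 to 0.037 and Ereg from -0.00036 to 0.64 in ileum against jejunum; Egfr from -0.16 to 0.016 in glucotonic sections against sham; Erbb2 from -0.11 to 0.036 in nonglucotonic sections against sham; and Egfr from -0.013 to 0.17 and Tgfa from -0.10 to 0.025 between glucotonic and nonglucotonic sections. With only the groups compared, Erbb2 was 0.0047 in ileum against jejunum. With lane 7 as a covariate, Erbb2 was 0.0045 in glucotonic and 0.14 in nonglucotonic sections against sham, and Areg was -0.020 in the latter. Within lane 7, Erbb2 was 0.12, Areg -1.88 and Ereg -0.74 in nonglucotonic sections against sham. Between glucotonic and nonglucotonic sections, Egfr was -0.014 without lane 7, -0.0048 without number 19 and -0.0097 without number 19 under the replicate block, and Tgfa was 0.017 without library 13-33 and 0.012 without it under the replicate block.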
